A study of Mus musculus with 12 samples.

Results

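Acetylation of histone H3 at lysine 9 (H3K9ac) was compared between livers of 2 inbred mouse strains over the regions that carried the mark in both. Overlapping peaks of the 4 B6 and MSM lists were merged into 1 region each, which gave 25808 union regions, and the 7777 regions with at least 1 peak in every one of the 4 libraries are described here. In each of these shared regions the extent of the mark was the number of bases covered by peaks of a library. That number was divided by the mean of the library over the 7777 regions, so that a relative extent of 1 is the average width of a shared region in that library. A region was called wider in B6 where both B6 values exceeded both MSM values, and wider in MSM in the opposite case. The fold between the lowest value of the wider strain and the highest value of the other strain is called the gap.

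B6 is C57BL/6J, from which the reference genome of the mouse was made. MSM is MSM/Ms, inbred from wild mice of Japan. Each strain gave 2 H3K9ac libraries from adult liver, precipitated with the same antibody, and no group carried a treatment or an introduced allele. The reciprocal hybrids, F1 BM with B6 as the mother and F1 MB with MSM as the mother, gave 1 library each and took no part in choosing the regions. The series asked whether acetylated domains at promoters differ between the strains and their reciprocal hybrids. The 2 libraries of a strain came from different mice, so a p-value rests on the spread between libraries of 1 strain, with 2 per strain. Each mouse gave 1 library, so the spread between mice and that between library preparations cannot be told apart.

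H3K9ac is laid down by acetyltransferases such as GCN5 and PCAF and removed by histone deacetylases, and it marks nucleosomes beside the starts of transcribed genes and active enhancers. Liver is made up mostly of hepatocytes, which secrete plasma proteins, make bile acids and fatty acids, and detoxify foreign compounds, so the starts of such genes are usually acetylated there. In bulk liver, a wider domain in each hepatocyte and a larger share of cells with the domain cannot be told apart.

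In a region wider in one strain, its mark could run on past the point where that of the other strain ended. Such ends are shown for 8 regions with wide gaps, so that the sequence under the strain-specific stretch can be read. Each line gives 75 bases on either side of the point where the mark ended in one strain and continued in the other. Capitals mark bases that lay under peaks of both libraries of the wider strain and of neither library of the other strain, and lower case marks bases that lay under a peak of the narrower strain as well. The sequence is the B6 reference (RefSeq, GRCm38.p6), read on the plus strand, and the MSM sequence is not shown. The first 4 regions were wider in B6 and the last 4 were wider in MSM.
Errfi1, chr4:150852670-150852819: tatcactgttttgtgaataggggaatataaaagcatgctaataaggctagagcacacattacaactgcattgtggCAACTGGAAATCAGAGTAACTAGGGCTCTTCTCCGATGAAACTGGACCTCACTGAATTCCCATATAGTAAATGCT
Kng2, chr16:23028308-23028457: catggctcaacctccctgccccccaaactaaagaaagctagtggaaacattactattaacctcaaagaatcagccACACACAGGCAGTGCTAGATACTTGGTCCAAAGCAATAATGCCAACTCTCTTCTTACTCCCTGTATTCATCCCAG
Wasf2, chr4:133096591-133096740: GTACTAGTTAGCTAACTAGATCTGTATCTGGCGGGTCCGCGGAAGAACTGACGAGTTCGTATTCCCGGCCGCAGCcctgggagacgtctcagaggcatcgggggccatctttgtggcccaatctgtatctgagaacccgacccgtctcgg
Cox8b, chr7:140905519-140905668: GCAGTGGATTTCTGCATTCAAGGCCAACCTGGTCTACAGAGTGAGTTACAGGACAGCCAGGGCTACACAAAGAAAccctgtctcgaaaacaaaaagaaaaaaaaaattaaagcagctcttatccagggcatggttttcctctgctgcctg
Zfp949, chr9:88548810-88548959: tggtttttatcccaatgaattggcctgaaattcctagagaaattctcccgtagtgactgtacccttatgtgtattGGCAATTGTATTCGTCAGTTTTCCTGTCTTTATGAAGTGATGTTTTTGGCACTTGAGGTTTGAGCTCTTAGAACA
Cyp7b1, chr3:18242712-18242861: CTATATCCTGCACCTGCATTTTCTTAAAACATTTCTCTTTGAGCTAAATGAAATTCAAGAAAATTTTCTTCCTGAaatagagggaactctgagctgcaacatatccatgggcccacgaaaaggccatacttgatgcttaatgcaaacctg
F9, chrX:60000259-60000408: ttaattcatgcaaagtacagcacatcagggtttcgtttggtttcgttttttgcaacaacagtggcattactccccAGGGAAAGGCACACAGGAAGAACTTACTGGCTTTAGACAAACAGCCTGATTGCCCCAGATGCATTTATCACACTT
Ppp1r3b, chr8:35412396-35412545: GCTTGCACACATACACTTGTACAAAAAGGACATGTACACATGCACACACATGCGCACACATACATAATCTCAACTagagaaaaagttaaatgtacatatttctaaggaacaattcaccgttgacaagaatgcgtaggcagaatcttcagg
The end at Wasf2 held 7 CpG dinucleotides in its B6-only bases and 5 in the bases shared with MSM. The end at Kng2 held 0 CpG in either part. At Zfp949 both parts held 1, and at Cyp7b1 the MSM-only bases held 0 and the shared bases 1. The 150 bases shown lay in an intron of the antisense gene 1700045H11Rik at Errfi1, in an intron of the gene itself at Kng2, Zfp949, Cyp7b1 and F9, and outside annotated genes at Wasf2, Cox8b and Ppp1r3b. The B6-only stretch that begins in the bases shown at Kng2 ran on into an untranslated region of the gene. At Cox8b the longest B6-only stretch was a separate one, at chr7:140906500-140907760, and it overlapped an exon of the noncoding transcript BC024386.

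The libraries differed in how much they called. The B6 lists held 22968 and 11619 peaks (replicates 1 and 2), whereas MSM replicates 1 and 2 had 17310 and 17584. A shared region was covered over 1169 and 718 bp on average in the B6 libraries and over 879 and 877 bp in the MSM libraries, which is why each library was divided by its own mean. The F1 BM library had a peak in 97.1% of the shared regions and the F1 MB library in 91.2%. The liver label was checked against markers of its cells, and 14 of 15 hepatocyte marker genes had a peak at the start in each parental library, all of them in a shared region. No marker list of Kupffer cells, endothelial cells, stellate cells or lymphocytes had a gene with a shared region at its start, and 1 of 10 cholangiocyte markers had one. Outside the shared regions, peaks at endothelial marker starts numbered 10 and 1 of 17 in the B6 libraries and 3 and 8 in the MSM libraries, and at Kupffer cell marker starts 4 and 0 of 16 in B6 and 0 in both MSM libraries. The part of these differences in the results was not tested.

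Of the 7777 shared regions, 1518 (19.5%) were wider in B6 and 1644 (21.1%) were wider in MSM. Together 3162 regions (40.7%) separated the strains. The 4 libraries can be paired in 2 other ways, and each region falls in exactly 1 of the 3 pairings. Equal shares would be 33.3% each, and the shares of the other pairings fall wherever that of the strains rises, so they are no independent background. Pairing by replicate number separated 2263 regions (29.1%), and pairing B6 replicate 1 with MSM replicate 2 separated 2352 (30.2%). With a gap of at least 1.5-fold the strains separated 399 regions (5.13%), against 120 (1.54%) and 131 (1.68%) in the other pairings. Most separated regions had narrow gaps. The median gap was 1.17-fold in the regions wider in B6 and 1.13-fold in those wider in MSM, and 33.3% and 40.5% of them had a gap under 1.1-fold. Gaps of at least 1.5-fold were found in 270 regions wider in B6 and 129 wider in MSM, and gaps of at least 2-fold in 76 and 23.

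**Figure D1:**
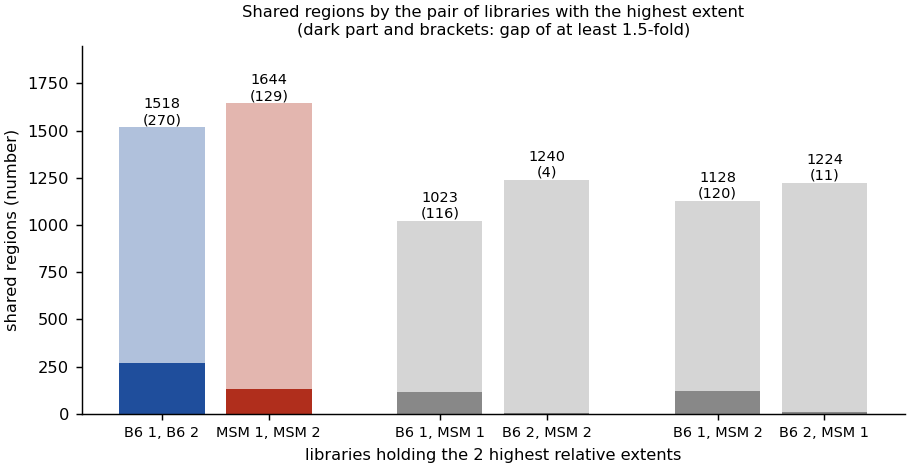
Number of shared regions (vertical axis) in which the 2 libraries named under a bar held the 2 highest relative extents. The dark part of a bar and the number in brackets are regions with a gap of at least 1.5-fold, and the strain bars hold 270 and 129 of these, while both bars in which B6 replicate 2 was paired with an MSM library hold 4 and 11.

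The patterns of the other pairings were uneven. B6 replicate 1 together with an MSM library was highest with a gap of at least 1.5-fold in 116 and 120 regions, and B6 replicate 2 together with an MSM library in 4 and 11. B6 replicate 1, with the widest peaks of the 4, and B6 replicate 2, with the fewest, were thus the least alike pair of a strain. Across the 7777 regions, Spearman's rho of the extents was 0.745 for the B6 pair and 0.842 for the MSM pair. Between the strains it was 0.782 and 0.774 for B6 replicate 1 and 0.703 and 0.692 for B6 replicate 2. The average rho of the same-strain pairs was 0.0558 above that of the mixed pairs, a difference that was -0.0294 and -0.0265 in the other pairings. An exact permutation test over the 3 pairings gave p = 0.333 for this, the smallest value that 4 libraries allow. Regions are not replicates, so these rho values describe the libraries.

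At the edge of the definition, the strains were barely apart. The region at Zfp146, a zinc finger gene, counted as wider in B6 with relative extents of 0.660 and 0.340 in B6 and 0.272 and 0.340 in MSM. The region at Dcaf10, a substrate receptor of a ubiquitin ligase, counted as wider in MSM with 0.452 and 0.503 in B6 and 0.503 and 0.592 in MSM. The region at Vars, the valyl-tRNA synthetase gene, missed the definition with 0.959 and 0.974 in B6 and 0.959 and 0.813 in MSM.

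The extents of all 7777 regions were then tested on the log2 scale with limma, with Benjamini-Hochberg adjustment over all of them. The variance used for a region drew on its own 4 libraries and on a trend over all regions. At an adjusted p under 0.05, 7 regions (0.09%) were wider in B6 and 3 (0.0386%) were wider in MSM, and all 10 were among the separated regions. The smallest fold between the strain means among the 10 was 3.40. At an adjusted p under 0.1 the numbers were 31 and 11, and at an unadjusted p under 0.05 they were 512 and 331. The number of calls turned on the libraries used. No region was called without B6 replicate 1 or without B6 replicate 2, whereas 44 and 12 were called without MSM replicate 1 and 38 and 12 without MSM replicate 2. A lone library of a strain was assumed to vary like those of the other strain. With peaks within 500 bp joined, 0 and 1 regions were called, and with no scaling none.

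Of the 7 regions that passed limma in the direction of B6, 2 lay at gene starts. The region at Errfi1 (chr4:150851093-150853955) covered the 5′ side of this immediate early gene, whose product restrains the receptor of epidermal growth factor. Its relative extents were 2.45 and 1.98 in B6 replicates 1 and 2 and 0.513 and 0.478 in MSM replicates 1 and 2. Both B6 libraries were high and both MSM libraries low, with a gap of 3.87-fold. The B6 minus MSM difference was 2.15 on the log2 scale (SE 0.26, adjusted p = 0.0351, limma). The hybrids had 2.72 and 2.69, above all 4 parental libraries. In MSM the mark was a single peak of 451 or 419 bp that ended 1186 and 1175 bp before the gene start, while in B6 replicate 1 it ran on to 36 bp past the start. B6 replicate 2 held 2 peaks here, and with peaks within 500 bp joined the difference was 0.79 (adjusted p = 0.229, limma).

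The other gene start was that of Gm49342, a predicted gene that overlaps Pnp, the purine nucleoside phosphorylase gene (chr14:50944532-50946580). The relative extents there were 1.75 and 1.57 in B6 and 0.312 and 0.320 in MSM. The groups lay far apart, and the difference was 2.39 on the log2 scale (SE 0.30, adjusted p = 0.0351, limma).

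The 5 distal regions of this kind were each named by the nearest start of a protein-coding gene, without a claim that they act on it. The region at Cox8b (chr7:140905292-140909679) lay 4.85 kb upstream of this gene for a subunit of cytochrome c oxidase that is known mainly from muscle and brown fat. It had relative extents of 3.65 and 3.86 in B6 and 0.338 and 0.813 in MSM, and 3.23 and 2.72 in the hybrids. MSM replicates 1 and 2 covered 297 and 713 bp of it and B6 replicates 1 and 2 covered 4264 and 2770 bp. The difference was 2.84 on the log2 scale (SE 0.38, adjusted p = 0.0383, limma).

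The region nearest Coq8a, a gene needed for coenzyme Q synthesis, lay 26.5 kb from it inside Psen2, which encodes a presenilin of gamma-secretase (chr1:180226123-180230035). The relative extents were 3.35 and 3.92 in B6, 0.769 and 0.568 in MSM and 3.01 and 2.51 in the hybrids. All B6 and hybrid values exceeded both MSM values, and the strain difference was 2.45 (SE 0.24, adjusted p = 0.0174, limma).

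The region nearest Wasf2, which encodes a regulator of actin assembly, lay 32.4 kb upstream (chr4:133096232-133098091). It had the widest gap of any region wider in B6, 5.32-fold, with 1.59 and 1.70 in B6 and 0.299 and 0.298 in MSM (log2 difference 2.46, SE 0.30, adjusted p = 0.0351, limma). Within Sema4a, a semaphorin gene, a region 4.87 kb from the start had 1.39 and 1.38 in B6 and 0.246 and 0.294 in MSM (adjusted p = 0.0400, limma). It had 0.979 in F1 BM and no peak in F1 MB. The region 5.69 kb from 2810459M11Rik, a gene of unassigned function, had 1.81 and 1.59 in B6 and 0.377 and 0.318 in MSM (adjusted p = 0.0383, limma). F1 BM had 0.797 there and F1 MB no peak, so the hybrids were lower at these last regions than at Cox8b or Wasf2.

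**Figure D2:**
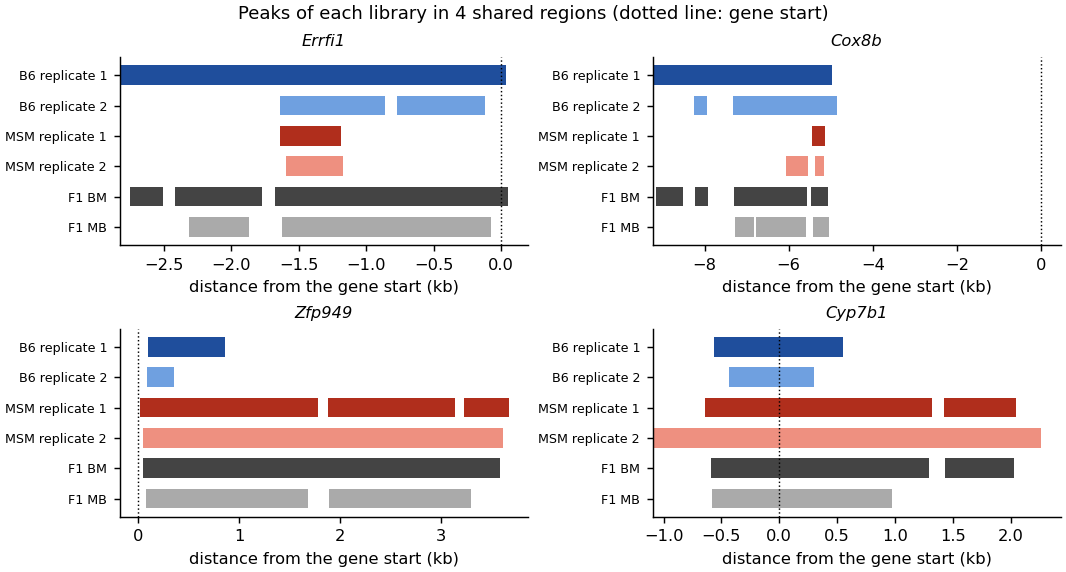
Peaks of the 6 libraries (rows) in the shared regions at Errfi1, Cox8b, Zfp949 and Cyp7b1, drawn by distance from the gene start in the direction of transcription (kb, horizontal axis), with the gene start dotted. The MSM peaks at Errfi1 and Cox8b cover a small part of what the B6 and hybrid peaks cover, and at Zfp949 and Cyp7b1 the B6 peaks end first.

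The 3 regions that passed limma in the direction of MSM were at Zfp949, at Cyp7b1 and far from the start of Cyp3a41b. Zfp949 is a gene of the KRAB zinc finger family, many of which silence transposable elements (chr9:88548042-88551695). The relative extents were 0.658 and 0.371 in B6 and 3.94 and 4.07 in MSM, the largest difference in the direction of MSM by value. F1 BM had 3.70 and F1 MB 4.05, close to MSM. In base pairs the B6 libraries covered 769 and 266 and the MSM libraries 3466 and 3569 (log2 difference -3.02, SE 0.30, adjusted p = 0.0174, limma). All B6 peaks ended within 864 bp of the gene start, and those of MSM reached 3675 and 3618 bp into the gene. The stretch marked in MSM alone lay in an intron and was 48.0% soft-masked repeat in the reference. Zinc finger genes of this family resemble one another, so reads there may have been placed at a wrong copy, and the same holds for the Cyp3a genes.

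Cyp7b1 encodes the oxysterol hydroxylase of the alternative pathway of bile acid synthesis (chr3:18241074-18244432). The relative extents were 0.951 and 1.02 in B6, 2.94 and 3.83 in MSM and 2.59 and 2.09 in the hybrids, so both hybrids lay between the strains. The difference was -1.77 on the log2 scale (SE 0.22, adjusted p = 0.0351, limma). The B6 peaks ended 551 and 301 bp into the gene and the MSM marks at 2043 and 2264 bp. Liver expression of Cyp7b1 is known to differ between the sexes, and the labels gave no sex. All 6 libraries had a peak at the start of Xist and none at 4 starts of genes on chromosome Y. Peaks elsewhere on chromosome Y numbered 0 and 0 in B6, 8 and 4 in MSM, and 9 and 1 in the BM and MB hybrids, and their part in the result was not tested.

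The region nearest Cyp3a41b, a cytochrome P450 of the drug-metabolising 3a cluster, lay 50.7 kb from its start (chr5:145635435-145637175). It had the widest gap of all regions, 6.21-fold, with relative extents of 0.258 and 0.313 in B6 and 1.95 in both MSM libraries. The hybrids had 1.80 and 1.73, near MSM (log2 difference -2.78, SE 0.30, adjusted p = 0.0258, limma).

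**Figure D3:**
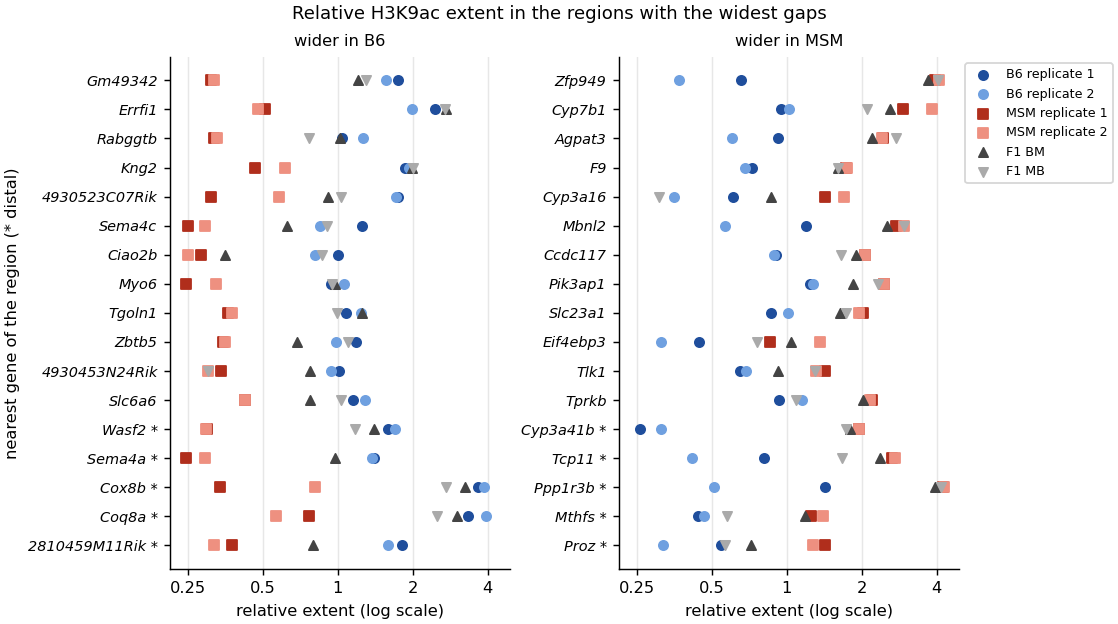
Relative H3K9ac extent (log scale) in each of the 6 libraries at the 12 gene starts and the 5 distal regions (asterisk) with the widest gap in either direction, among regions of at least 1000 bp. Circles are B6, squares MSM and triangles the hybrids, and libraries without a peak (F1 MB at Sema4a and 2810459M11Rik) are not drawn. At Errfi1 and Zfp949 both hybrids lie with the wider strain, and at 4930453N24Rik F1 MB (0.301) lies with MSM.

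Other gene starts with wide gaps toward B6 did not pass limma. Kng2, one of a pair of similar kininogen genes whose plasma proteins release kinins, had 1.86 and 1.94 in B6 and 0.464 and 0.614 in MSM, and 2.0 and 2.01 in the hybrids (adjusted p = 0.0565, limma). Its MSM peaks lay between 1100 and 1637 bp into the gene, and the B6 peaks began 399 and 421 bp from the start. Rabggtb, a subunit of the enzyme that adds geranylgeranyl groups to Rab proteins, had 1.04 and 1.26 in B6 against 0.319 and 0.330 in MSM. Ciao2b, a factor of iron-sulphur cluster assembly, had 1.00 and 0.814 against 0.282 and 0.251. Myo6, an unconventional myosin of endocytosis, had 0.938 and 1.06 against 0.246 and 0.326, and Slc6a6, the taurine transporter, 1.15 and 1.29 against 0.424 and 0.425. The gaps at the 12 gene starts ranked highest ran from 2.71-fold at Slc6a6 to 4.89-fold at Gm49342. Among them were also the semaphorin gene Sema4c, the zinc finger gene Zbtb5, Tgoln1 of the trans-Golgi network, and the uncharacterised 4930523C07Rik and 4930453N24Rik.

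Ranked by the difference in relative extent rather than the gap, the first 5 regions wider in B6 were those at Oaf, Cox8b, Coq8a, Lrp1 and Bcl9l. Oaf, which encodes a secreted protein, carried the longest of the 7777 regions, 9364 bp. It had 8.01 and 9.50 in B6, 5.06 and 4.62 in MSM and 8.96 and 8.82 in the hybrids. Lrp1, an endocytic receptor that takes up lipoprotein remnants, had 4.46 and 5.19 in B6 and 2.34 and 2.76 in MSM, and Bcl9l, a co-activator of beta-catenin, 3.26 and 3.56 against 1.43 and 1.59. At Oaf, Lrp1 and Bcl9l both strains had extents above the average of 1, and the gaps were 1.58, 1.61 and 2.05-fold (adjusted p = 0.158, 0.123 and 0.0959, limma).

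In the direction of MSM, F9, the gene of coagulation factor IX on chromosome X, had 0.724 and 0.680 in B6, 1.74 and 1.75 in MSM and 1.60 and 1.61 in the hybrids (adjusted p = 0.0959, limma). The B6 peaks ended 869 and 843 bp into the gene and the MSM peaks at 1535 and 1543 bp. Agpat3, an acyltransferase of phospholipid synthesis, had 0.927 and 0.606 against 2.43 and 2.41, and Mbnl2, a splicing regulator, 1.2 and 0.566 against 2.74 and 2.97. Cyp3a16, a P450 of the same cluster as Cyp3a41b, had 0.607 and 0.354 against 1.42 and 1.70. Its hybrids had 0.863 and 0.307, nearer to B6. The remaining starts ranked were those of Ccdc117, Pik3ap1, Slc23a1, Eif4ebp3, Tlk1 and Tprkb, with gaps of 1.89 to 2.27-fold. The distal region 34.8 kb from Ppp1r3b, a glycogen-targeting subunit of protein phosphatase 1, had 1.43 and 0.510 in B6 and 4.25 and 4.27 in MSM, with 3.94 and 4.18 in the hybrids (adjusted p = 0.0959, limma). The other distal regions were those nearest Tcp11, within Anks1 and 70.8 kb away, Mthfs, a folate enzyme, and Proz, which encodes the plasma protein Z. The region just outside the start of Foxa1, a transcription factor that opens liver enhancers, had 3.30 and 2.25 in B6, 4.99 and 5.52 in MSM and 3.88 and 2.0 in the hybrids (adjusted p = 0.167, limma).

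Arcn1 and Nnt are the genes at which the study compared how far H3K9ac reaches on one side of an inserted repeat. The relative extent used here adds up all covered bases of a region and is a different measure from that reach. By this extent neither gene separated the strains, and both mean differences were towards a wider MSM, within the replicate error and reversed when the libraries were cut to the same number of peaks. Arcn1, which encodes a subunit of the COPI vesicle coat, had relative extents of 0.941 and 1.02 in B6 and 1.35 and 0.814 in MSM (log2 difference -0.10, SE 0.31, adjusted p = 0.964, limma). Nnt, the proton-pumping transhydrogenase that supplies mitochondrial NADPH, had 1.11 and 0.433 in B6 and 0.880 and 0.918 in MSM (log2 difference -0.38, SE 0.43, adjusted p = 0.840, limma). At Arcn1 the MSM replicates lay on either side of both B6 values, and at Nnt the B6 replicates lay on either side of both MSM values. The outermost upstream peak edge of the Arcn1 region, counted from the gene start with upstream as negative, was at -155 and -10 bp in B6 and at -286 and -18 bp in MSM. At Nnt it was at -534 and -380 bp in B6 and at -481 and -472 bp in MSM. At both genes these edges of the strains overlapped. They are edges within the shared region, so a separate peak further upstream was not counted. The reach that the study compared was not measured here. The signal below the peak threshold and the allelic reads of the hybrids were not analysed here.

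Gene starts and distal regions were compared next. Of the shared regions 5510 lay within 1 kb of the start of a protein-coding gene and 2267 were distal. At gene starts 19.4% were wider in B6 and 20.1% in MSM, and among distal regions 19.8% and 23.6%. With a gap of at least 1.5-fold, 175 gene starts (3.18%) were wider in B6 and 63 (1.14%) in MSM, and 95 (4.19%) and 66 (2.91%) of the distal regions. On average the distal regions had a relative extent of 0.970 ± 0.0130 (SD, n = 2) in B6 and 0.981 ± 0.0102 (SD, n = 2) in MSM. The difference of -0.0106 was within the spread between replicates (exact two-sided permutation p = 0.667, smallest possible 0.333).

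The regions with a gap of at least 1.5-fold differed in base composition from the shared regions as a whole. The median CpG observed-to-expected ratio was 0.618 over all shared regions, 0.498 in those wider in B6 and 0.299 in those wider in MSM. The median GC content was 54.6% over all of them, 51.8% in those wider in B6 and 48.5% in those wider in MSM. Soft-masked repeat made up 10.9%, 15.1% and 14.6% of them on average, and 70.8%, 64.8% and 48.8% lay at gene starts. At any gap, the median CpG ratio was 0.580 in the regions wider in B6 and 0.601 in those wider in MSM. In the patterns of the other pairings it was 0.604 to 0.683. Of the regions wider at any gap, 70.5% (B6) and 67.4% (MSM) lay at gene starts. The regions of the other pairings with a gap of at least 1.5-fold were not measured for composition. It is thus not known whether wide gaps there go with the same values. All these values describe lists chosen on their extents and carry no test.

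The stretches that were marked in both libraries of the wider strain and in neither of the other were summed as well. In the regions wider in B6 they came to 274 kb in 1303 regions, and in the regions wider in MSM to 112 kb in 764 regions. These lengths are in unscaled bases and moved with B6 replicate 1, the library with the widest peaks. In the other pairings they came to 199 and 219 kb where it was in the higher pair, and to 4.28 and 4.76 kb where B6 replicate 2 was. They were 20.3% soft-masked repeat in B6 and 16.3% in MSM, against 8.89% and 10.4% in the parts of the same regions marked in all 4 libraries. In the other pairings such stretches were 10.9% to 15.6% soft-masked. At gene starts, 30.8% of the length marked in B6 alone lay upstream of the start and the rest downstream, and 16.8% of that marked in MSM alone. In the other pairings the upstream share was 33.6% and 30.2% where B6 replicate 1 was in the higher pair, on either side of the B6 value, and 49.8% and 34.2% of far shorter lengths where B6 replicate 2 was.

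The height of the peaks moved with their width. The authors' fold enrichment at the highest peak of a region, divided by the median of its library, separated the strains in the same direction as the extent in 32.9% of the regions wider in B6 and in the opposite direction in 9.22%. For the regions wider in MSM these shares were 33.3% and 8.88%. Over all shared regions 18.6% had a higher fold in both B6 libraries and 19.1% in both MSM libraries. Height and width come from the same reads, so the fold is not an independent measurement.

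The hybrids were not used to choose the regions. F1 BM exceeded both MSM libraries in 69.2% of the regions wider in B6, and F1 MB in 62.3%. In the regions wider in MSM, the hybrids exceeded both B6 libraries in 66.1% and 65.6%. In the 4 patterns of the other pairings F1 BM exceeded both lower libraries in 48.5% to 63.9% of regions and F1 MB in 54.1% to 69.8%, so the F1 MB shares lay within the range of the other pairings. At a gap of at least 1.5-fold these shares were 86.7% and 75.9% for the regions wider in B6, and 91.5% and 74.4% for those wider in MSM. In the 116 regions of that gap where B6 replicate 1 and MSM replicate 1 were the higher pair, they were 77.6% and 53.4%. In the 120 where B6 replicate 1 and MSM replicate 2 were higher, they were 65.8% and 63.3%. The patterns with B6 replicate 2 in the higher pair held few regions of that gap. With MSM replicate 1 they were 11 regions with shares of 90.9% for F1 BM and 45.5% for F1 MB, and with MSM replicate 2 they were 4 regions with 75% for each hybrid. With 1 library per cross these shares have no replicate error.

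The shared regions at gene starts were then read by function, over 29 gene lists. A total of 5532 protein-coding genes had a shared region at the start, of which 1081 (19.5%) were wider in B6 and 1082 (19.6%) in MSM, with a median log2 difference of -0.015. Among the lists with at least 10 such genes, that of lipogenesis and cholesterol synthesis held the highest share in either direction. Of its 60 genes 40 had a shared region at the start, and 20 of these (50.0%) were wider in MSM and 6 (15.0%) in B6. The list had a median log2 difference of -0.33. Its median relative extent was 1.01 and 0.995 in B6, 1.27 and 1.28 in MSM and 1.14 and 0.986 in the hybrids. No member passed limma, with a lowest adjusted p of 0.131 at Agpat2. The count in the direction of MSM was 9 of 40 with no scaling, 9 of 25 when the lists were trimmed to the same covered length and 12 of 29 in regions of at least 1000 bp. Under these settings 6.39%, 27.1% and 22% of all shared regions were wider in MSM.

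**Figure D4:**
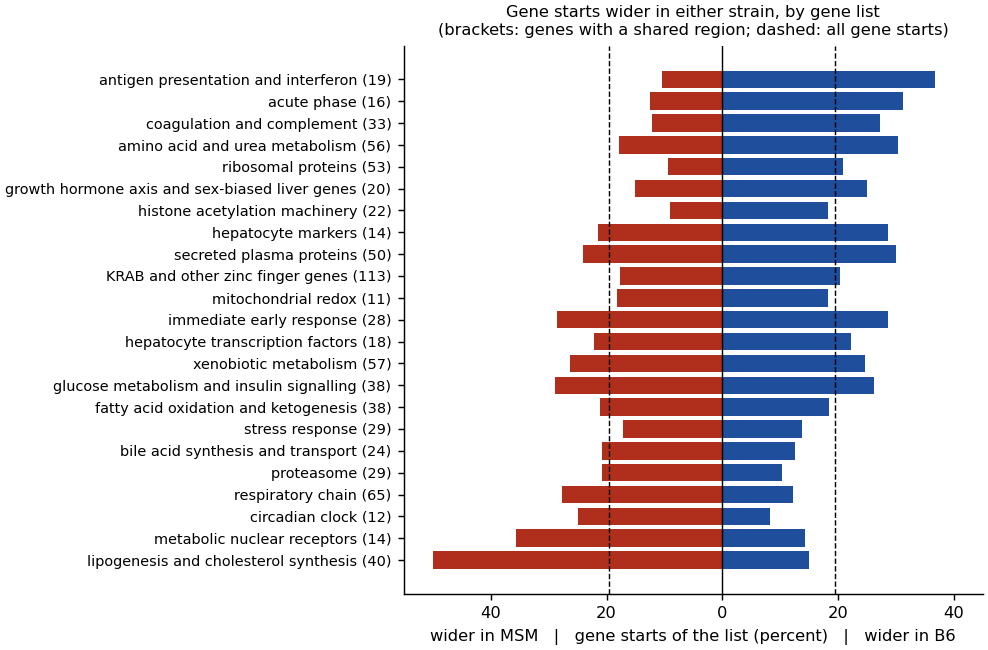
Percent of the gene starts of each list that were wider in B6 (to the right) or in MSM (to the left), for the lists with at least 10 genes at a shared region (number in brackets). Dashed lines mark the shares over all 5532 genes, 19.5% and 19.6%, and the bar of lipogenesis and cholesterol synthesis reaches 50.0% toward MSM.

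Genes of the sterol pathway made up most of the 20. Srebf2, the transcription factor that switches on cholesterol synthesis, had 0.860 and 0.467 in B6 and 1.58 and 1.64 in MSM, with 1.25 in F1 BM and 0.483 in F1 MB (log2 difference -1.35, SE 0.33, adjusted p = 0.167, limma). Hmgcs1, an early enzyme of the mevalonate pathway, had 0.802 and 0.712 in B6 and 1.51 and 1.46 in MSM, and its hybrids, with 0.611 and 0.671, were below all 4 (log2 difference -0.97, SE 0.25, adjusted p = 0.185, limma). Fdps, which makes farnesyl diphosphate, had 0.619 and 0.644 in B6 and 0.906 and 1.38 in MSM. Fasn, the fatty acid synthase, had 2.20 and 2.21 in B6, 3.17 and 2.93 in MSM and 2.44 and 2.43 in the hybrids (adjusted p = 0.428, limma).

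Idi1, the isopentenyl diphosphate isomerase, had 0.288 and 0.318 in B6 and 0.897 and 0.600 in MSM, and was picked out after its values had been seen, as were Insig1 and Srebf1. Insig1, which holds back the sterol sensors in the endoplasmic reticulum, had 2.43 and 2.84 against 3.54 and 3.06. Also wider in MSM were the sterol enzymes Cyp51, Acat2, Fdft1, Msmo1, Sc5d and Dhcr7, the sterol carrier Stard4, the acetyl-CoA and malonyl-CoA suppliers Acss2, Acly and Acacb, and the fatty acid elongases Elovl1 and Elovl6. The genes wider in B6 were Agpat2, Gpam and Dgat1, of acylglycerol synthesis, and Elovl5, Elovl2 and Fads2, of polyunsaturated fatty acid synthesis. Agpat2 had 2.43 and 1.83 in B6 and 0.938 and 1.07 in MSM. Srebf1, the transcription factor of fatty acid synthesis genes, had 1.59 and 1.04 in B6 and 1.58 and 1.63 in MSM and did not separate the strains.

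**Figure D5:**
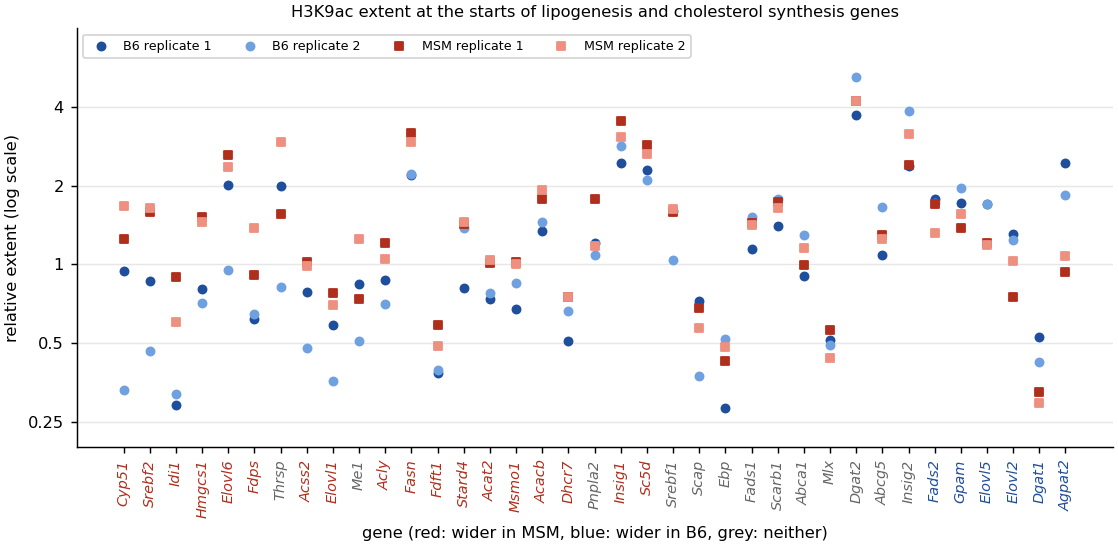
Relative extent (log scale) at the starts of 37 of the 40 genes of lipogenesis and cholesterol synthesis, with circles for the B6 and squares for the MSM libraries, ordered by the mean log2 difference. Names in red are 18 genes wider in MSM and names in blue the 6 wider in B6, and the replicates of B6 lie far apart at some genes such as Cyp51 and Srebf2.

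Promoters of these genes are known to bind SREBP at sterol regulatory elements beside NF-Y at CCAAT boxes, so both motifs were searched on either strand, from 250 bases before to 50 after the gene start in RefSeq (GRCm38.p6). The letters TCACNCCAC were found in 1 of the 15 genes wider in MSM that had an entry, Hmgcs1, and in 388 of 27025 genes in all (1.44%). The letters ATTGGC, an inverted CCAAT box, were found in 6 of these 15 genes (40%), in 7 of the 15 other measured genes of the list (46.7%) and in 16.7% of all genes. Neither motif is contained in the other. Matches at Hmgcs1, Srebf2 and Idi1 are shown with up to 20 bases on either side and the match in capitals, on the plus strand.
Hmgcs1, chr13:119690194-119690242: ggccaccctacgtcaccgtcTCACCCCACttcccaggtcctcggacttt
Srebf2, chr15:82147114-82147159: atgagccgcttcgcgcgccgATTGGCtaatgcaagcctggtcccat
Idi1, chr13:8885541-8885586: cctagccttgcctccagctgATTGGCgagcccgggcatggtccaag
A match describes the letters only and is no evidence of binding.

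Of the 24 bile acid genes measured, 3 (12.5%) were wider in B6 and 5 (20.8%) in MSM. Over all genes with a shared region at the start the shares were 19.5% and 19.6%. Cyp7a1, the rate-limiting enzyme of the classic pathway, had 0.875 and 0.922 in B6 and 0.641 and 0.604 in MSM. Cyp8b1, which sets the share of cholic acid, had 2.32 and 0.450 in B6 and 3.34 and 3.31 in MSM, a gap of 1.43-fold with B6 replicate 2 far below the others. Cyp7b1 was the only gene of this list to pass limma.

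Among the lists with more genes wider in B6 than in MSM were those of amino acid and urea metabolism, of coagulation and complement and of antigen presentation and interferon. Of 56 genes of amino acid and urea metabolism, 17 (30.4%) were wider in B6 and 10 (17.9%) in MSM, with a median log2 difference of 0.019. Bhmt, which remethylates homocysteine, had 2.50 and 2.86 in B6 and 1.47 and 1.63 in MSM. Gldc, of the glycine cleavage system, had 1.82 and 1.90 against 1.11 and 1.1. Glul, the glutamine synthetase, had 1.36 and 0.871 against 1.68 and 1.76. Of 33 coagulation and complement genes, 9 (27.3%) were wider in B6 and 4 (12.1%) in MSM, among the former Fga, a fibrinogen chain, with 2.16 and 2.67 against 1.71 and 1.66. Of 19 genes of antigen presentation and interferon response, 7 (36.8%) were wider in B6 and 2 (10.5%) in MSM. Ifngr1, a chain of the interferon gamma receptor, had 0.867 and 0.949 against 0.550 and 0.594, and B2m, the light chain of MHC class I, had 1.64 and 1.56 against 2.09 and 2.0. None of these genes passed limma.

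Of 50 secreted plasma proteins, 15 (30.0%) were wider in B6 and 12 (24.0%) in MSM. Alb, the albumin gene, had 2.79 and 2.06 in B6, 1.12 and 0.310 in MSM and 3.06 and 1.36 in the hybrids, and the MSM libraries lay further apart than the B6 ones (log2 difference 2.03, adjusted p = 0.182, limma). Without MSM replicate 1, which leaves the lowest library as the lone MSM value, the adjusted p was 2.18e-08 in limma. It was 0.232 without MSM replicate 2, 0.364 without B6 replicate 1 and 0.439 without B6 replicate 2. With peaks within 500 bp joined the difference was 0.77. Ambp, the precursor of alpha-1-microglobulin and bikunin, had 1.35 and 1.63 against 0.592 and 0.862. Pon1, the plasma paraoxonase, had 3.59 and 3.73 against 4.56 in both MSM libraries.

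Xenobiotic metabolism was balanced, with 14 of 57 genes (24.6%) wider in B6 and 15 (26.3%) in MSM. Gstm1, a glutathione transferase with close relatives in the same cluster, had 2.35 and 2.45 in B6 and 0.949 and 0.984 in MSM, with 2.32 and 1.22 in the hybrids (adjusted p = 0.0870, limma). Ephx2, the soluble epoxide hydrolase, had 1.56 and 1.82 against 0.775 and 0.624. Cyp2a5, a coumarin hydroxylase, had 1.48 and 0.822 against 2.02 and 2.18. Members of the Cyp, Gst and Ugt families are similar in sequence, and their values are uncertain for that reason.

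Transcription factors of hepatocytes were also balanced, with 4 of 18 genes (22.2%) wider in B6 and 4 (22.2%) in MSM. Atf5, a stress-responsive factor of the mitochondrial unfolded protein response, had 1.83 and 2.84 in B6 and 0.711 and 0.709 in MSM, and 2.14 and 1.24 in the hybrids (adjusted p = 0.0870, limma). Onecut1, also called HNF6, had 2.89 and 1.96 against 4.09 and 4.06. At Cebpb, a factor of liver metabolism and the acute phase that was wider in MSM as well, the gap was 1.03-fold. Of the 14 metabolic nuclear receptors, 2 (14.3%) were wider in B6 and 5 (35.7%) in MSM. The oxysterol receptor Nr1h3 had 1.69 and 1.33 in B6 and 2.44 and 2.01 in MSM, and the bile acid receptor Nr1h4 had 2.19 and 2.93 against 1.76 and 2.17.

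Of 65 respiratory chain genes, 8 (12.3%) were wider in B6 and 18 (27.7%) in MSM, with a median log2 difference of -0.05. Ndufa4, a subunit of cytochrome c oxidase, had 0.885 and 0.577 in B6 and 1.14 and 1.26 in MSM, and Uqcrfs1, the Rieske protein of complex III, had 0.915 and 0.904 against 0.438 and 0.514. Of 53 ribosomal protein genes, 11 (20.8%) were wider in B6 and 5 (9.43%) in MSM. Fatty acid oxidation and ketogenesis had 7 (18.4%) and 8 (21.1%) of 38. Acat1, a thiolase of ketone body metabolism, had 2.22 and 2.06 against 1.22 and 0.771. Etfb, an electron carrier, had 0.931 and 0.826 against 1.55 and 1.46. Of 28 immediate early genes 8 (28.6%) were wider in B6 and 8 (28.6%) in MSM, and Errfi1 was the only one past limma. Klf10, another of these, had 2.28 and 1.53 in B6 and 0.910 and 0.795 in MSM, whereas the hybrids had 0.288 and 0.312, below both strains.

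In the other lists the counts in both directions were closer or the lists smaller. Over all genes with a shared region at the start, 19.5% were wider in B6 and 19.6% in MSM. Of 113 zinc finger genes 23 (20.4%) were wider in B6 and 20 (17.7%) in MSM. Glucose metabolism and insulin signalling had 10 (26.3%) and 11 (28.9%) of 38, and stress response genes 4 (13.8%) and 5 (17.2%) of 29. The proteasome had 3 (10.3%) and 6 (20.7%) of 29, and the circadian clock 1 (8.33%) and 3 (25%) of 12. The histone acetylation machinery had 4 (18.2%) and 2 (9.09%) of 22, and the acute phase genes 5 (31.2%) and 2 (12.5%) of 16. Mitochondrial redox had 2 (18.2%) and 2 (18.2%) of 11, and the COPI coat 1 (14.3%) and 1 (14.3%) of 7. Gclm, the modifier subunit of the enzyme that starts glutathione synthesis, had 2.26 and 2.07 in B6 and 0.997 and 0.971 in MSM, with 1.62 and 0.929 in the hybrids (adjusted p = 0.102, limma). Lbp, which binds bacterial lipopolysaccharide in plasma, had 1.02 and 1.63 against 0.611 and 0.602. Of the 20 genes of the growth hormone axis and sex-biased expression measured, 5 (25%) were wider in B6 and 3 (15%) in MSM. Nudt7, a peroxisomal hydrolase of coenzyme A, had 2.35 and 1.58 in B6, 0.727 and 0.723 in MSM and 2.53 and 1.2 in the hybrids. Mup3, a major urinary protein gene with many near-identical relatives, had 1.63 and 2.0 in B6 and 0.939 and 0.268 in MSM, and is uncertain for that reason. No gene of these lists passed limma apart from Zfp949 and Cyp7b1.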

How the data were processed

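H3K9ac ChIP-seq libraries of 6 livers were analysed, and 6 input libraries were not used here. The submitters' processing notes name Trim Galore, HISAT2, SAMtools, MACS2 and mm10 (GRCm38), while the study's methods name Bowtie 2 as the aligner. MSM as well as B6 read pairs were mapped to the B6 reference, so MSM reads over divergent sequence may have been lost. The authors deposited 1 peak list per library, with a fold enrichment (a linear ratio), the −log10 p, the −log10 q and a score, which was the whole part of 10 times the −log10 q in all but 1 of 102889 peaks. The lowest −log10 q was 1.3, and the threshold and the use of the input are not given in the sources used here. Read counts are not part of these lists, so depth was not used, and the number of peaks stands beside each library instead.

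Extents were compared with Python 3.11.15, pysam 0.24.0 and SciPy 1.17.1. Log2 relative extents were tested with limma 3.58.1 in R 4.3.3, with a trended variance, over all 7777 regions and the 4 parental libraries, and the method was tested on simulated data. Gene starts came from GENCODE M21, a region at a gene start overlapped 1 kb either side of one, and soft-masked bases were read from the reference genome. Among regions of at least 1000 bp, the 12 gene starts and 5 distal regions with the widest gap and the 5 with the largest difference were named in each direction, with up to 4 members of each gene list per direction, Arcn1 and Nnt. Other scalings, peak thresholds, merging, width measures and left-out libraries were tried. The regions and gene lists were chosen with earlier results of these data known. Some members of the gene lists are counted but not reported by name here.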

Additional observations from a re-analysis of the deposited data

How the results depend on the processing

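Counts of separated regions stayed within 1.5 times the reported ones under the alternatives that are not listed next. With no scaling 1369 regions were wider in B6 and 497 in MSM. With the same covered length in every list the counts were 681 and 965 of 3556 regions, and with regions of at least 1000 bp 821 and 867 of 3949. A gap of at least 1.5-fold left 270 and 129. Leaving out 1 library eases the definition, and the counts were then 2451 to 3197 for B6 and 2562 to 3089 for MSM. The limma calls depended on the processing. They numbered 25 and 10 (B6 and MSM) with the median in place of the mean, 22 and 10 with quantile normalization and 33 and 15 in regions of at least 1000 bp. They numbered 0 and 0 with no scaling, with the same number of peaks, with the same covered length and with the outer span of the peaks, and 0 and 1 with peaks within 500 bp joined. Without 1 library they ran from 0 to 44 and from 0 to 12. With the replicate number as a replicate block they were 164 and 107. The deviations of same-numbered libraries had a correlation of -0.019 across regions, so the replicate numbers were not taken to pair the samples, and the crossed pairing was not fitted. The causes of these shifts were not tested.

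The difference of distal regions between B6 and MSM changed sign with no scaling (56.4 bp) and with the same covered length (0.0043). Of the 177 named regions 10 had passed limma, and only these could lose a call. A region that was uncalled and stayed uncalled counts as having kept its side. The 177 regions gave 2370 log2 differences over the alternatives. Of these 2240 kept their direction and their side of the limma threshold, 56 lost and 60 gained a call, and 14 changed sign at 11 regions, none of which had passed limma. With the same number of peaks the B6 minus MSM difference was 0.12 at Nnt, 0.024 at Arcn1 and 0.52 at Cth. With the same covered length it was 0.47 at Cth, 0.032 at Gys2 and -0.11 at Sqstm1. With the outer span it was 0.030 at Akr1c6, 0.057 at Cry2, -0.16 at Ppp1r3c and -0.063 at Ahsg, and with peaks joined -1.0 at Sin3a and -0.016 at Rxra. Without 1 library it ran from -1.05 to 0.30 at Nnt and from -0.46 to 0.27 at Arcn1. Alternatives for the gene lists were chosen after seeing the data. The number of sterol and fatty acid synthesis genes wider in MSM ran from 9 to 28 over them, and the number of genes measured differed as well. The share of all shared regions wider in MSM also moved, from 6.39% with no scaling to 39.7% without B6 replicate 2. Peaks under the authors' threshold are not listed, so a narrow extent may reflect a shallow library, and depth was not measured here.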
